A study of Zea mays with 24 samples.

Results

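The genes nrt2.1 (Zm00001d054057) and nrt2.2 (Zm00001d054060) encode high-affinity nitrate transporters of maize (Zea mays). They were taken by identifier, as 2 of the 50202 features in the deposited tables, and were selected on their root levels under water and salinity, whose change was already known to differ between the cultivars. The root values below are therefore given as a description, with no test. RNA was sequenced from roots and young shoots of seedlings at the 3-leaf stage of the cultivars SS and ST, treated with water or with a salinity solution of 100 mM. No line was genetically modified as far as the labels say, and the sources used here name neither the salt nor the length of the treatment. Each of the 8 combinations of cultivar, treatment and tissue had 3 libraries, described by the submitters as biological replicates, 24 libraries in all. How many plants went into a library is not given.

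Many NRT2 proteins sit in the plasma membrane of root cells and carry nitrate inward together with protons. They serve uptake when the nitrate outside the root is scarce, and in Arabidopsis, rice and barley they work with a small partner protein of the NAR2 (NRT3) family. In Arabidopsis, transcripts of some NRT2 genes are induced by nitrate and repressed when the plant is well supplied with reduced nitrogen, and they are found mainly in roots.

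The maize genes are known as a pair of similar sequence, which was not compared here. RefSeq's table for Zm-B73-REFERENCE-NAM-5.0 lists them as neighbours on one chromosome with 0 genes between them, and they share 1 older identifier. The files gave both features the same length, 1575 bases, as recovered from the values. The sources used here do not say how a read that matches both copies was counted. The split of reads between nrt2.1 and nrt2.2 is therefore uncertain, and the sum of the pair is given beside the single genes. The gene names come with the identifiers from maize nomenclature, because neither the files nor the table pair them. Reads from sequence that differs between a cultivar and the reference could also be lost, which touches every comparison of SS with ST below and was not tested.

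Levels are the deposited FPKM values, which are scaled to feature length and to the library's total. Library totals ran from 19747198 to 28825226 reads. In roots the values of nrt2.1 rested on 823 to 7843 reads per library and those of nrt2.2 on 614 to 9057. In shoots no library had more than 15 reads of nrt2.1 or 13 of nrt2.2. In these bulk samples, fewer cells that express a gene and less RNA per cell cannot be told apart. The tissue labels could not be set against known markers, because 0 of 16 marker symbols paired with an identifier in the files.

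In SS roots both transporters stood higher under salinity than under water. The level of nrt2.1 was 63.2, 67.2 and 67.4 FPKM in the 3 water libraries and 104, 106 and 107 FPKM in the 3 salinity libraries. That of nrt2.2 was 36.7, 36.5 and 34.2 FPKM under water and 90.2, 87.0 and 85.2 FPKM under salinity. All salinity libraries lay above all water libraries for both genes. Across all 27109 root features with at least 1 FPKM in at least 3 of the 12 root libraries, 26.5% had salinity libraries that all lay above the water libraries in SS. From means of 65.9 ± 2.38 and 106 ± 1.89 FPKM (SD, n = 3 each), nrt2.1 was 1.60-fold higher under salinity. From 35.8 ± 1.36 and 87.5 ± 2.53 FPKM, nrt2.2 was 2.44-fold higher. The differences on the log2(FPKM + 1) scale were 0.67 (SE 0.0429) for nrt2.1 and 1.27 (SE 0.0436) for nrt2.2, against a median of 0 over all root features. By size of the rise nrt2.1 stood at place 1046 and nrt2.2 at place 230 among them.

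In ST roots the order of the treatments was the opposite. The level of nrt2.1 was 171, 186 and 180 FPKM under water and 24.2, 25.3 and 24.6 FPKM under salinity. The level of nrt2.2 was 196, 208 and 212 FPKM under water and 19.5, 18.9 and 19.2 FPKM under salinity. For both genes every salinity library was far below every water library. Of all root features, 21.9% had salinity libraries that all lay below the water libraries in ST. The mean of nrt2.1 was 179 ± 7.54 FPKM under water and 24.7 ± 0.568 FPKM under salinity (SD, n = 3 each), 7.25-fold lower under salinity. That of nrt2.2 was 206 ± 8.21 and 19.2 ± 0.304 FPKM, 10.7-fold lower. On the log2(FPKM + 1) scale the differences were -2.81 (SE 0.0429) and -3.35 (SE 0.0436), against a median of 0.03 over all root features. Among the 27109 root features, these were the 23rd and the 11th largest falls.

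**Figure D1:**
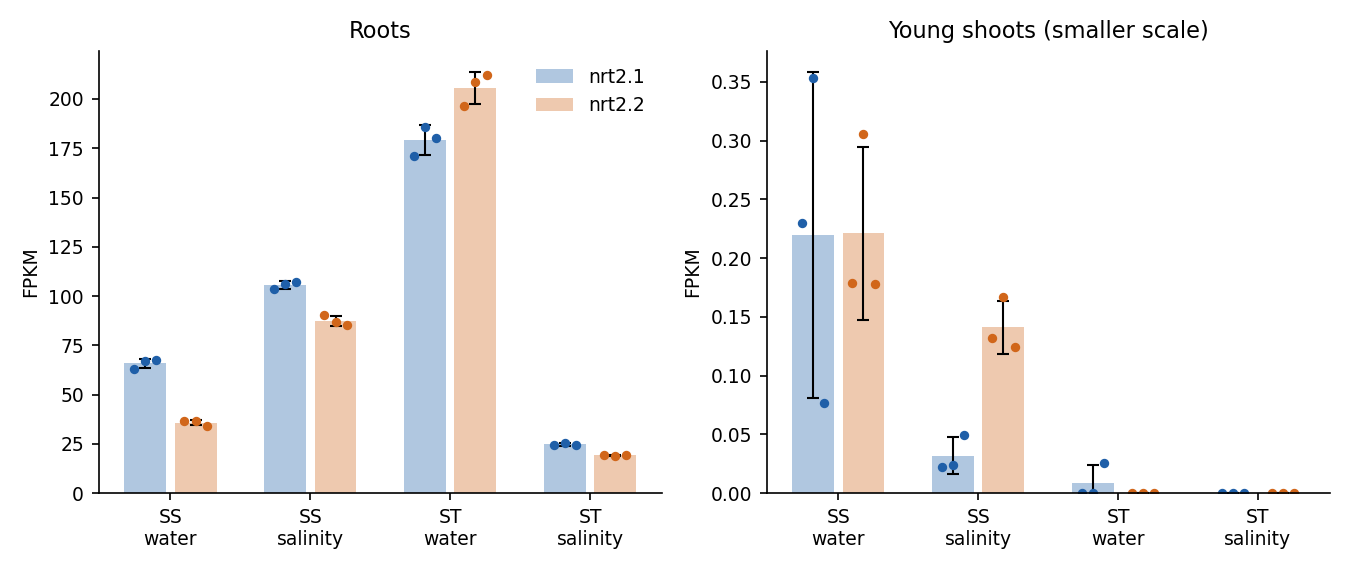
Levels of nrt2.1 and nrt2.2 in FPKM in roots (left) and young shoots (right, on a smaller scale); points are libraries, bars are group means and error bars are SD (n = 3). In roots, SS stood higher under salinity (106 against 65.9 FPKM for nrt2.1) and ST lower (24.7 against 179 FPKM), while no shoot library exceeded 0.353 FPKM.

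The opposite root responses turned the order of the cultivars around. Under water nrt2.1 was 2.72-fold and nrt2.2 was 5.74-fold higher in ST than in SS roots. Under salinity nrt2.1 was 4.28-fold and nrt2.2 was 4.56-fold lower in ST than in SS. In each of these comparisons the 3 ST libraries lay apart from the 3 SS libraries for both genes. Of all root features, 41.2% had ST libraries all above SS under water, and 32.0% had ST libraries all below SS under salinity. For both genes the 4 root groups kept 1 order, with ST under water highest, then SS under salinity, SS under water and ST under salinity, and no neighbours in that order overlapped.

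The response in ST minus that in SS was -3.48 (SE 0.0606) for nrt2.1 and -4.62 (SE 0.0616) for nrt2.2 on the log2(FPKM + 1) scale. Ordered from the lowest, these differences held places 13 and 2 among the 27109 root features, whose median was 0.05. Salinity libraries without overlap above water in SS and below water in ST were seen for 1599 root features, 5.9% of those compared. A rise in SS and a fall in ST at least as large as those of nrt2.1 were shared by 4 other features, nrt2.2 among them. For nrt2.2 there was 1 other such feature.

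**Figure D2:**
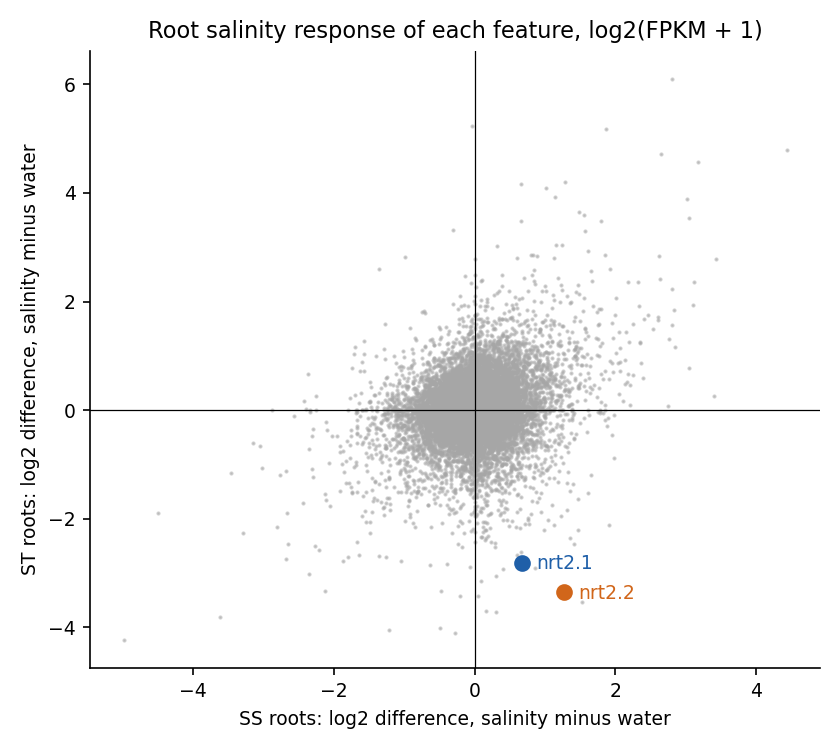
Root salinity response of each of 27109 features (grey), as the difference between salinity and water in log2(FPKM + 1), in SS (x axis) and ST (y axis). The coloured points nrt2.1 (0.67 in SS, -2.81 in ST) and nrt2.2 (1.27, -3.35) lie at the lower right edge of the cloud, higher under salinity in SS and lower in ST.

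The summed level of both copies does not depend on how reads were split between them, provided that a read matching both was counted once. Whether it was is not stated in the sources used here. The sum showed the same order. The sum was 99.9, 104 and 102 FPKM in SS roots under water and 194, 193 and 192 FPKM under salinity. In ST roots it was 367, 394 and 392 FPKM under water and 43.7, 44.2 and 43.8 FPKM under salinity. The sum was thus 1.90-fold higher under salinity in SS and 8.77-fold lower in ST.

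Within the pair, nrt2.2 moved further than nrt2.1 in both cultivars. As the features have equal length, shares of reads compare their levels as counted. The uncertain split of reads and reads lost from cultivar sequence could shift these shares, which was not tested. The share of nrt2.2 in the reads of the pair was 36.7%, 35.2% and 33.7% in SS roots under water and 46.6%, 45.0% and 44.3% under salinity. In ST roots it was 53.4%, 52.8% and 54.0% under water and 44.6%, 42.7% and 43.8% under salinity. Thus nrt2.2 had the higher level of the 2 copies in every ST root library under water, and nrt2.1 in all 9 other root libraries. Pooled over the 3 libraries, the shares were 35.1% (exact Clopper-Pearson 95% interval 34.2 to 36.0%) and 45.3% (44.6 to 45.9%) in SS, and 53.4% (53.0 to 53.9%) and 43.8% (42.4 to 45.2%) in ST. These intervals cover counting error only, here and below. The intervals of the salinity groups overlapped, whereas those of the water groups lay apart.

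**Figure D3:**
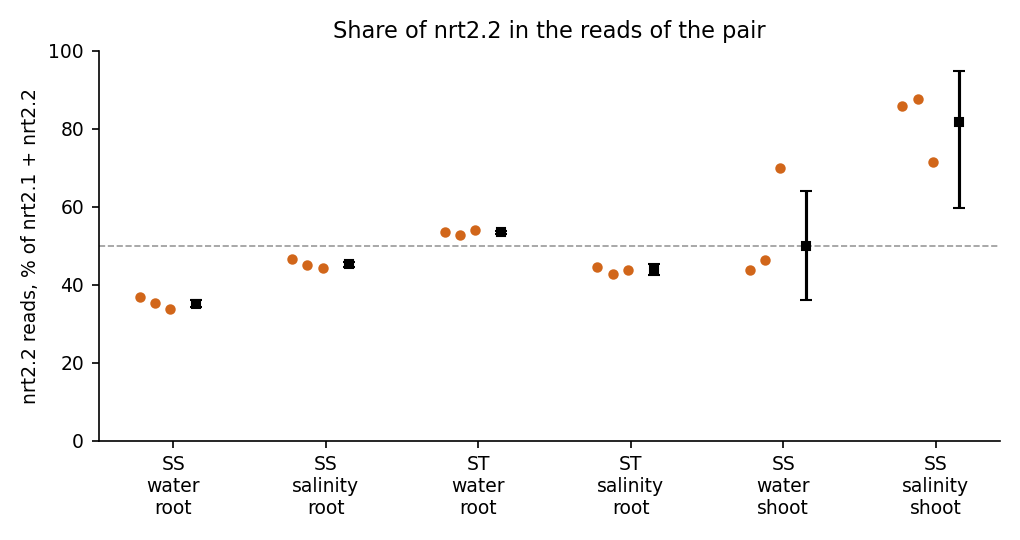
Share of nrt2.2 in the reads of nrt2.1 and nrt2.2 together, in percent, for each library (orange points) and pooled over 3 libraries with its exact 95% interval (black squares); the dashed line marks equal shares. Only ST roots under water lie above the line among root groups (53.4%), and the shoot shares rest on 54 and 22 reads.

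Both genes were almost silent in young shoots. In SS shoots under water nrt2.1 stood at 0.230, 0.353 and 0.0764 FPKM, on 9, 15 and 3 reads, and nrt2.2 at 0.179, 0.306 and 0.178 FPKM, on 7, 13 and 7 reads. Under salinity nrt2.1 stood at 0.0220, 0.0239 and 0.0499 FPKM, on 1, 1 and 2 reads, and nrt2.2 at 0.132, 0.167 and 0.125 FPKM, on 6, 7 and 5 reads. In ST shoots nrt2.1 had 1 read in 1 of 6 libraries and nrt2.2 had 0 reads in all 6. A count of 0 over a group allows a level of up to 0.0247 FPKM in ST shoots under water and 0.0277 FPKM under salinity, taking 3 reads over the group's total.

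The difference between the tissues was far larger than any response to salinity, and is also a description, since it uses the root values. In SS, nrt2.1 was 300-fold higher in roots than in shoots under water, and nrt2.2 was 162-fold higher. Under salinity in SS the ratio for nrt2.2 was 619. In ST, nrt2.2 was at least 8310-fold higher in roots than in shoots under water and at least 693-fold higher under salinity, against the floor of 3 reads over the group. For nrt2.1 in ST under salinity the bound was at least 892-fold, also against that floor. Median-of-ratios scaling over all libraries lowered log2 ratios of roots to shoots by 0.39 to 0.72, and all these ratios kept their direction. Where the shoot group had 0 reads, scaling could not change it.

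The genes were selected on root values, so differences in shoots were tested. Their shoot levels were also known when the genes were chosen, so these p-values are not fully independent of the choice. Both genes lay below the level set for testing, at least 1 FPKM in at least 3 of the 12 shoot libraries, and the tests below dropped that requirement and covered all 38498 features with a value above 0 in shoots.

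In SS shoots nrt2.1 fell under salinity, from 0.220 ± 0.138 to 0.0319 ± 0.0156 FPKM (SD, n = 3 each). The difference was -0.24 on the log2(FPKM + 1) scale (SE 0.0625, limma adjusted p = 0.0113). The group ratio of reads was 0.141 with an exact 95% counting interval of 0.0358 to 0.404, from 27 reads under water and 4 under salinity. This call was lost when only the 2 groups compared were fitted (SE 0.0791, limma adjusted p = 0.0529). The main fit shares the spread of all shoot groups, among them ST groups with almost no reads of either gene. Over the 12 fits made without the level requirement the limma adjusted p ran from 0.000111 to 0.0529. The level of nrt2.2 was 0.221 ± 0.0734 and 0.141 ± 0.0226 FPKM (log2 difference -0.10, SE 0.0376, limma adjusted p = 0.0686), which did not pass. Its ratio of reads was 0.633 with an exact 95% counting interval of 0.328 to 1.19, from 27 and 18 reads. It passed in 3 of 12 such fits, after median-of-ratios scaling (limma adjusted p = 0.0433) and without SS water replicate 1 (0.0417) or replicate 3 (0.0414), and the highest adjusted p was 0.203, without SS water replicate 2, where the log2 difference was -0.05. In FPKM, neither gene's groups overlapped in SS shoots. The nearest libraries of the 2 treatments held 3 and 2 reads of nrt2.1, and 7 reads each of nrt2.2. For nrt2.2 they thus lay apart only through their library totals. Of all shoot features with a value, 16.2% were called lower in this comparison, and 19.0% had salinity libraries all below the water libraries. For the sum of the pair, 0.441 ± 0.204 and 0.173 ± 0.0184 FPKM, the exact two-sided permutation test gave p = 0.1, the smallest that 3 against 3 libraries can give.

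Between the cultivars, shoots of ST had less of both transcripts under water. The level of nrt2.2 was 0.221 ± 0.0734 FPKM in SS and at 0 reads in ST, at least 8.93-fold lower against the floor of 3 reads over the group (log2 difference -0.29, SE 0.0376, limma adjusted p = 3.95e-05, n = 3 each). For nrt2.1 the ratio of ST to SS reads was 0.0369 with an exact 95% counting interval of 0.000902 to 0.224, from 1 and 27 reads (log2 difference -0.27, SE 0.0625, limma adjusted p = 0.00285). Both calls were kept in all 12 fits, with adjusted p up to 0.00153 for nrt2.2 and 0.0217 for nrt2.1. Each fit includes ST shoots, which had almost no reads and so hardly any spread, and the SE shares that spread. Keeping the calls therefore does not check this limit. Of all shoot features with a value, 34.0% were called lower in ST under water.

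Under salinity nrt2.2 was also lower in ST shoots than in SS shoots. It was at least 5.10-fold lower against the same kind of floor, on 0 and 18 reads (log2 difference -0.19, SE 0.0376, limma adjusted p = 0.000924), and the 12 fits gave adjusted p from 1.70e-06 to 0.00503. These fits too all include ST shoots with 0 reads of nrt2.2, so they do not check the small spread behind the SE. For nrt2.1, with 0 and 4 reads, the difference did not pass (log2 difference -0.05, SE 0.0625, limma adjusted p = 0.569), and in the 12 fits the adjusted p ran from 0.0624 to 0.747. Median-of-ratios scaling raised log2 ratios of ST to SS shoots by 0.14 under water and 0.27 under salinity. These differences kept their direction, which was fixed in advance wherever ST had 0 reads, since scaling leaves 0 unchanged. Of all shoot features with a value, 37.9% were called lower in ST under salinity. In ST shoots both treatments lay at or under the floor for both genes, so no response to salinity was detectable there at this depth. The shoot response in ST minus that in SS did not pass for either gene. It was 0.22 for nrt2.1 (SE 0.0884, limma adjusted p = 0.0766) and 0.10 for nrt2.2 (SE 0.0532, limma adjusted p = 0.205). For the sum of the pair the exact permutation p was 0.1 in both comparisons of the cultivars, which with that of the treatments in SS makes 3 comparisons, all at the smallest p possible.

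In SS shoots nrt2.2 made up 27 of the 54 reads of the pair under water, 50.0% (exact 95% interval 36.1 to 63.9%). Under salinity it made up 18 of 22, 81.8% (59.7 to 94.8%). The 3 salinity libraries, at 71.4 to 87.5%, lay above the 3 water libraries, at 43.8 to 70.0%, with the pooled intervals overlapping. The nearest libraries rested on 5 of 7 reads under salinity and 7 of 10 reads under water, too few to separate them.

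Over the 24 libraries nrt2.1 and nrt2.2 followed each other with a Pearson coefficient of 0.995 on log2(FPKM + 1). The points fall into root and shoot libraries far apart. Reads that match both copies could also raise their likeness, here and in roots alone, which was not tested. Over the 12 root libraries alone, which form 4 groups, the coefficient was 0.967, which put nrt2.2 at place 33 among the features most like nrt2.1. Among 29126 other features, those most like nrt2.1 over the 24 libraries were Zm00001d010042 (0.997) and Zm00001d035125 (0.997), and those most like nrt2.2 were Zm00001d010042 (0.998) and Zm00001d032882 (0.996). None of these identifiers is paired with a gene name in the files or the reference table.

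By group means, these 3 features had the same order of the root groups at lower levels. They were picked for likeness over libraries that include the root libraries, so a shared order follows in part from the choice. Zm00001d010042 stood at 10.7 ± 0.968 FPKM under water and 18.8 ± 2.05 FPKM under salinity in SS roots, and at 27.8 ± 2.08 and 6.16 ± 1.06 FPKM in ST roots (SD, n = 3 each), with 0 reads in all shoot libraries. Zm00001d032882 stood at 8.43 ± 1.22 and 16.7 ± 0.875 FPKM in SS roots and at 21.4 ± 1.91 FPKM under water in ST roots, where its salinity libraries ran from 5.77 to 6.68 FPKM, also with 0 reads in shoots. Zm00001d035125 moved less, from 4.06 ± 0.224 to 5.95 ± 0.0770 FPKM in SS roots and from 6.33 ± 0.332 to 2.93 ± 0.183 FPKM in ST roots. Its libraries of SS under salinity and ST under water overlapped, and it kept some reads in every shoot library. Ranked by Spearman's coefficient, Zm00001d035125 was again the first for nrt2.1 (0.985), whereas Zm00001d010042 came at place 119 for nrt2.1 and 173 for nrt2.2, and Zm00001d032882 at place 169 for nrt2.2. By Pearson's coefficient over the 12 root libraries alone, Zm00001d035125 came at place 38 for nrt2.1 (0.964), Zm00001d010042 at places 19 and 13, and Zm00001d032882 at place 19 for nrt2.2, so none stayed among the first 2 in roots.

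**Figure D4:**
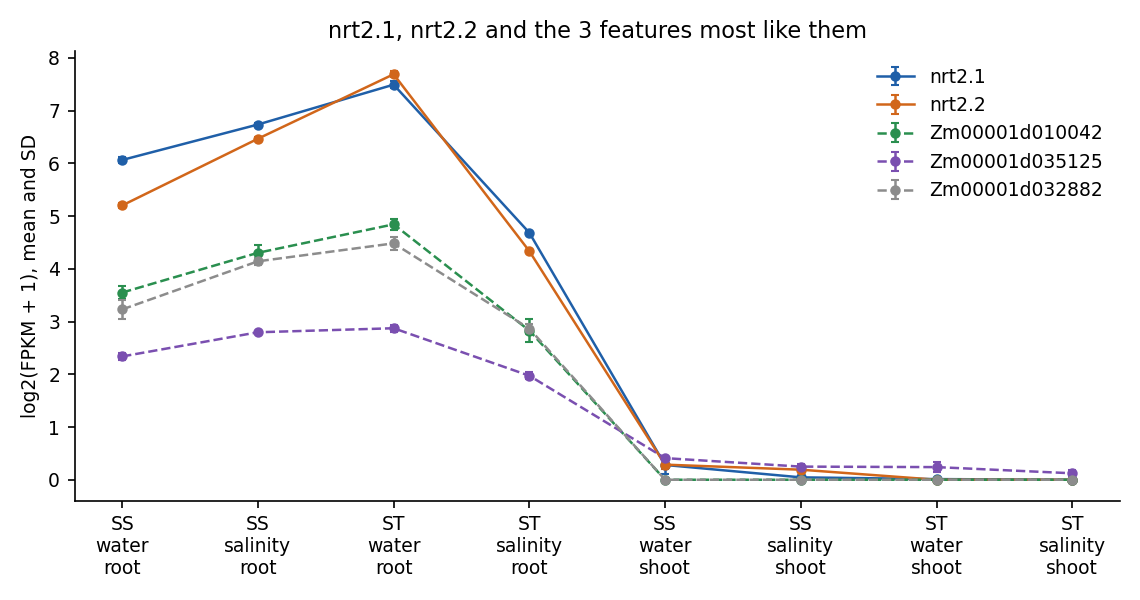
Group means and SD (n = 3) of log2(FPKM + 1) for nrt2.1, nrt2.2 and the 3 features with the most similar pattern over 24 libraries; lines only join the values of one feature. All 5 features are highest in ST roots under water, lower in ST roots under salinity than in any other root group, and near 0 in shoots.

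The files hold 0 features whose identifiers lie between those of nrt2.1 and nrt2.2. The nearest identifiers on either side were looked at by number alone and without a claim on position. Zm00001d054056 stood at 0.0566 and 0.0524 FPKM in SS roots under water and salinity, on 0 to 3 reads per library, at 0.185 FPKM on 4 to 6 reads per library in ST roots under water, and at 0 reads in ST roots under salinity and in all shoot libraries. Its highest and lowest root groups were thus those of nrt2.1 and nrt2.2, on very few reads, while its SS root groups overlapped. Zm00001d054062 stood at 0.788 ± 0.122 and 0.723 ± 0.147 FPKM in SS roots, with overlapping libraries, and was highest in ST shoots under salinity, at 2.04 ± 0.132 FPKM.

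Other genes of nitrate uptake and assimilation, among them the NAR2 partners, nitrate reductases, nitrite reductases, glutamine synthetases and NLP transcription factors, were sought by symbol. Of 40 symbols listed, 16 occur in the reference table and 0 could be paired with an identifier in the files, so the levels of these genes are not reported here.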

How the data were processed

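FPKM values were deposited as 1 headerless table per library. Per the submitters' processing notes, TopHat2, Cufflinks, Cuffdiff and the build B73 RefGen_v3 belong to the processing, in roles that are not described. Identifiers with the prefix Zm00001d come from a gene set released after that build; which annotation was counted is thus unclear, and coordinates are left out. Handling of reads with several matches is not stated in the sources used here. One unnamed blank row per table was dropped. Whole reads were recovered by finding feature lengths and library totals under which each value became a whole count, within 0.002, for 100% of the 40811 features with any value above 0. A count may be a read or a fragment and is called a read.

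Differences of log2(FPKM + 1) were fitted with limma 3.58.1 (R 4.3.3), with variances that follow mean expression, 1 fit per tissue of its 12 libraries, and Benjamini-Hochberg adjustment over all features tested at 0.05. Log2 differences understate changes of low features. The fits and the recovery were run on simulated data, and no outcome is given here. How the fits behave at the low shoot levels of nrt2.1 and nrt2.2 was not tested. Reads of replicate pairs differed by more than counting noise (chi-square per degree of freedom 1.89 to 7.94), so none was treated as a duplicate. Whether replicates came from separate plants is not detailed, so p-values measure the spread between these libraries, which may be technical.

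The genes, lists and tests were chosen with earlier results of these data known. Features most like each gene were the 2 with the highest Pearson coefficient among features with at least 1 FPKM in at least 3 libraries. Alternatives were a pseudocount of 0.1, other filters, median-of-ratios scaling, voom on recovered reads, a replicate block, fewer groups and leaving out each library. Plots used matplotlib 3.10.9 in Python 3.11.15.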

Additional observations from a re-analysis of the deposited data

Results flagged for a closer look

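The root response to salinity was flagged for both genes because it differed between the cultivars. All 3 SS salinity libraries lay above the SS water libraries and all 3 ST salinity libraries lay below the ST water libraries. The same was seen for 5.9% of the 27109 root features compared. The response in ST minus that in SS was -3.48 for nrt2.1 and -4.62 for nrt2.2 on the log2(FPKM + 1) scale. This difference was not tested here, since the genes were chosen for it.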

How the results depend on the processing

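The differences of nrt2.1, nrt2.2 and their sum that are listed below kept their direction under the alternatives run. Where ST shoots had 0 reads, the direction of ST against SS was fixed in advance under scaling, either pseudocount and leaving out libraries. In roots, values moved by more than the replicate SD for nrt2.1 in ST with voom (-2.89) and for nrt2.2 in ST with a pseudocount of 0.1 (-3.41) and voom (-3.45). The response in ST minus that in SS was -3.53 for nrt2.1 and -4.70 for nrt2.2 with that pseudocount, and voom gave -3.57 and -4.74. The log2 ratios of the sum were 0.90 in SS and -3.18 in ST roots after median-of-ratios scaling. In shoots a pseudocount of 0.1 gave -1.18 and -0.39 for salinity in SS, -1.46 and -1.66 for ST against SS under water and -0.39 and -1.27 under salinity, and voom gave -2.34 and -0.65, -3.40 and -4.10, and -1.38 and -3.24. These larger sizes follow from the construction, since a pseudocount of 1 exceeds every shoot level.

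Without 1 library at a time, differences for nrt2.1 ran from 0.64 to 0.69 (SS roots), -2.84 to -2.78 (ST roots), -3.51 to -3.45 (ST minus SS), -0.32 to -0.16 (SS shoots) and, for ST against SS shoots, -0.35 to -0.19 under water and -0.05 to -0.03 under salinity. Those for nrt2.2 ran from 1.23 to 1.28, -3.39 to -3.33, -4.65 to -4.59, -0.12 to -0.05, -0.31 to -0.24 and -0.20 to -0.17. The log2 ratios of the sum ran from 0.91 to 0.94, -3.16 to -3.11 and, in SS shoots, -1.62 to -0.94.

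Same-numbered libraries of the 2 treatments did not deviate together (correlations of -0.09 to 0.06), and 7 of 24 libraries correlated best with their own number. A replicate block left the differences at 0.67 and 1.27 in SS and -2.81 and -3.35 in ST roots, and gave 10390 called features against 10501 in SS roots. No shoot value came from the filter of at least 5 FPKM, which neither gene passed. Alternative fits of the shoot response in ST, and of its difference from that in SS, are not reported here, both ST groups being at or under the floor. Depth limits all shoot statements, which rest on 0 to 15 reads per gene and library.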
